A study of Mus musculus with 6 samples.

Results

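The genes described here encode 10 secreted proteins of the extracellular matrix: the microfibril scaffolds Fbn1 and Fbn2, the elastic fibre core Eln, the EMI-domain protein Emid1, the adhesive glycoprotein Fn1, and the matricellular proteins Tnc, Thbs1, Thbs2, Postn and Tgfbi. They were taken by name, 10 genes of the 38924 in the count tables, and all 10 passed the filter on low counts that left 13333 genes for testing. The list was chosen from results of the same genotype comparison, so differences between the genotypes in these genes are given as a description and support nothing by themselves. Matricellular proteins act on cells through integrins and other receptors more than they bear load, and fibrillins form the microfibrils on which elastin is deposited and which hold latent TGF-beta. In developing cartilage many of these genes are best known from the perichondrium, the fibrous sheath around the cartilage, while fibronectin marks the condensing mesenchyme from which cartilage forms.

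Transcripts were sequenced from cartilage of the anterior nasal septum, cut by laser from frozen head sections of C57BL/6 mice at embryonic day 14.5. The Apert group was 3 animals of genotype Fgfr2+/S252W; EIIA-Cre, that is, heterozygous for the S252W substitution of the FGF receptor gene Fgfr2 that causes Apert syndrome in people, with a Cre transgene whose promoter acts in the early embryo. The WT group was 3 animals labelled only as WT, so whether they carried Cre is not known from the labels. Each library came from 1 animal, and the comparison sets Apert against WT cartilage. Levels are given as CPM, the count over the library total after scaling by the trimmed mean of M values. Between genes they are compared per kilobase of exon, except that marker genes are set against other genes by CPM alone.

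Totals ran from 6760510 to 10527915 counts in Apert and from 8631181 to 10834744 in WT libraries. Mitochondrial genes took 34.3% to 40.4% of counts in Apert and 28.8% to 30.2% in WT libraries, and 18245 to 18529 genes were detected in Apert against 18687 to 18942 in WT. Fgfr2 was at 584, 511 and 467 CPM in Apert and 701, 583 and 611 CPM in WT libraries, and a point mutation leaves its exons in place, so these values do not check the labels. The cartilage collagen gene Col2a1 was the most abundant of the cartilage markers, at 16378 to 18236 CPM in Apert and 16689 to 24607 CPM in WT libraries. In bulk tissue, fewer cells of a type and less RNA per cell cannot be told apart.

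The promoters of 4 genes are shown, because their genes gave the differences described here: Tnc was higher in every Apert library than in any WT library, Postn and Thbs2 peaked in the same library, and Emid1 was the one of the 10 genes called. Each is 300 bases of RefSeq sequence on GRCm38.p6, from 250 bases before to 50 bases after the start site nearest the gene's start in the count tables, written 5′ to 3′ in the direction of the gene. Capitals mark matches on either strand to the TATA box motif TATAAA or the ETS motif CCGGAAG. No match to the AP-1 motif TGANTCA or the TEAD motif GGAATG was found in these windows. The Tnc promoter lies at chr4:64046966-64047265 on the minus strand, that of Postn at chr3:54360857-54361156 on the plus strand, that of Thbs2 at chr17:14694213-14694512 on the minus strand and that of Emid1 at chr11:5152181-5152480 on the minus strand.
Tnc: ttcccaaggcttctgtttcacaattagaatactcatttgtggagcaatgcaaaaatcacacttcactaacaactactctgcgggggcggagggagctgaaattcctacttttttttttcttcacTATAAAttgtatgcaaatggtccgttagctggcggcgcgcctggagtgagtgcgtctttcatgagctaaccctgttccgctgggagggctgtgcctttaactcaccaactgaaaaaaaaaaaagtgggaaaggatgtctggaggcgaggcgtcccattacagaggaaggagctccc
Postn: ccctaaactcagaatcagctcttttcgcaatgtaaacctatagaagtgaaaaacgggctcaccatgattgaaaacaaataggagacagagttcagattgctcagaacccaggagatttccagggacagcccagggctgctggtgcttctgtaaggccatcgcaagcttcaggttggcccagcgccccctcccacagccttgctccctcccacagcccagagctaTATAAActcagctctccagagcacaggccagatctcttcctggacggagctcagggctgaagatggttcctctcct
Thbs2: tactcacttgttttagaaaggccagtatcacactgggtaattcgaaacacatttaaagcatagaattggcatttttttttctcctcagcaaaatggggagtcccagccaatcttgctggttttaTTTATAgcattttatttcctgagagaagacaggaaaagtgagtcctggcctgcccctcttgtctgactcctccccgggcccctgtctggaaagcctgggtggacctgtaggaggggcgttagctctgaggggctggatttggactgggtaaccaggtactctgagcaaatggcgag
Emid1: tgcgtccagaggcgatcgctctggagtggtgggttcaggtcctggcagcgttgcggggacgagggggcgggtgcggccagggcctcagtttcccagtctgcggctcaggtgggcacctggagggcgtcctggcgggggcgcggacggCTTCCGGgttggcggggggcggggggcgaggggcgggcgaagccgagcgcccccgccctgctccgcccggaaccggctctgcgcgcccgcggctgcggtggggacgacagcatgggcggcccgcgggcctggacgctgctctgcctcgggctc

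The TATA box match began at position -26 in Postn and at -126 in Tnc, both on the strand of the gene, and at -126 on the other strand in Thbs2, counted from the start site. Emid1 had no TATA box match and 1 ETS match, at -103 on the other strand. Of 32851 promoters of this length in the table, 13.6% held TATAAA, 8.86% CCGGAAG, 7.81% TGANTCA and 14.7% GGAATG. The Emid1 window was 77.3% G and C with 37 CG dinucleotides. Those of Tnc, Thbs2 and Postn were 47.3%, 48.3% and 53.0% G and C with 10, 4 and 5 CG dinucleotides, and the median of all promoters was 52.7%. A match describes letters in a window and not a site in use.

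Per kilobase of exon, Fn1 stood far above the rest, at 645 ± 48.7 CPM per kilobase in Apert and 576 ± 104 in WT cartilage (SD, n = 3 each). It supplied 76.3% to 80.9% of the counts of the 10 genes in Apert and 77.5% to 81.0% in WT libraries. In Apert cartilage Postn came second (46.3 ± 19.5 CPM per kilobase), then Thbs1 (34.9 ± 6.01), Tnc (29.8 ± 0.402), Fbn1 (24.6 ± 4.61), Fbn2 (23.8 ± 3.08), Tgfbi (7.16 ± 1.97), Thbs2 (4.07 ± 3.01), Emid1 (3.94 ± 0.666) and Eln (3.43 ± 1.45). In that order the ranges of neighbours overlapped from Postn to Tnc, between Fbn1 and Fbn2, and from Tgfbi to Eln, while Fn1 and Postn, Tnc and Fbn1, and Fbn2 and Tgfbi were apart. In WT cartilage Thbs1 (42.9 ± 5.98 CPM per kilobase), Postn (30.6 ± 2.87), Fbn1 (27.6 ± 1.34), Fbn2 (21.2 ± 1.51) and Tnc (19.6 ± 3.97) followed Fn1, and of these neighbours only Fbn2 and Tnc had overlapping ranges. Emid1 (8.96 ± 2.02) and Tgfbi (7.88 ± 1.52) overlapped each other, as did Thbs2 (2.06 ± 0.522) and Eln (1.65 ± 0.686). Fbn1 shares 20.1% of its exon bases with another gene, so its place in both orders is uncertain.

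**Figure D1:**
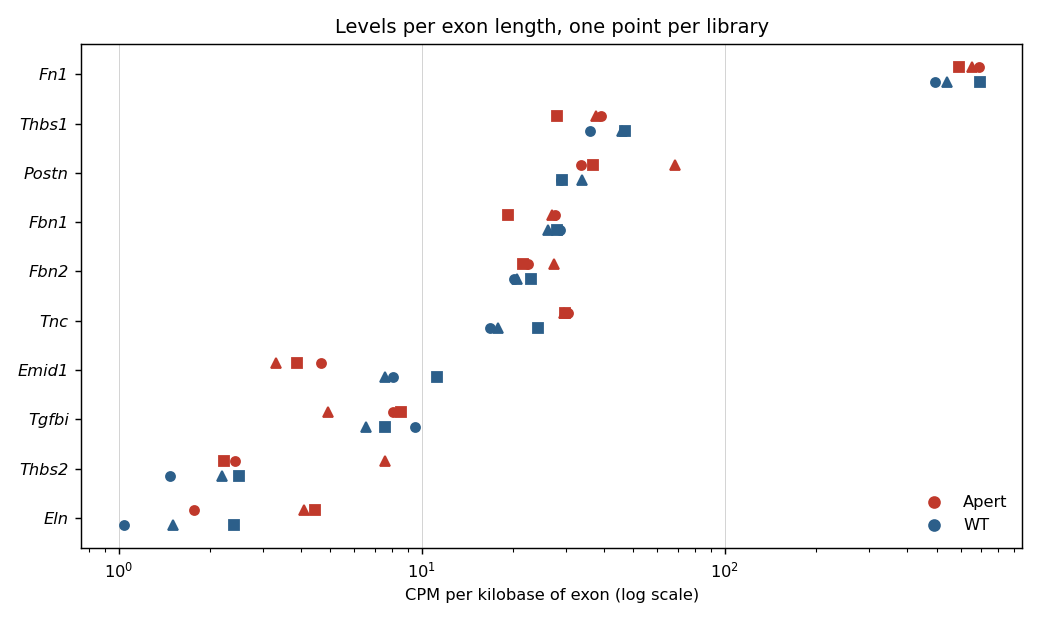
Levels of the 10 matrix genes in CPM per kilobase of exon on a log axis, 1 point per library, with genes ordered by their WT mean. Circles, squares and triangles are replicates 1, 2 and 3. Fn1 lies above 494 in all 6 libraries and every other gene below 68.8.

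Of the 10 genes, 1 was called at an adjusted p of 0.05 by edgeR's quasi-likelihood test (Benjamini-Hochberg, over all genes), Emid1, which was lower in Apert cartilage. Over all 13333 genes tested, 0.45% were called, 0.398% as higher (53 genes) and 0.0525% as lower in Apert (7 genes). Scaling by library totals, which put the all-gene median log2 fold change at -0.15, gave 17 higher and 24 lower calls. In 2 of the 10, Tnc and Emid1, the Apert and WT libraries did not overlap, against 16.6% of all tested genes. The fitted log2 fold change was positive for 6 members and negative for 4, with a median of 0.16, against a median of 0.01 over all tested genes. Because the members were picked with these values known, nothing is read from the counts.

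**Figure D2:**
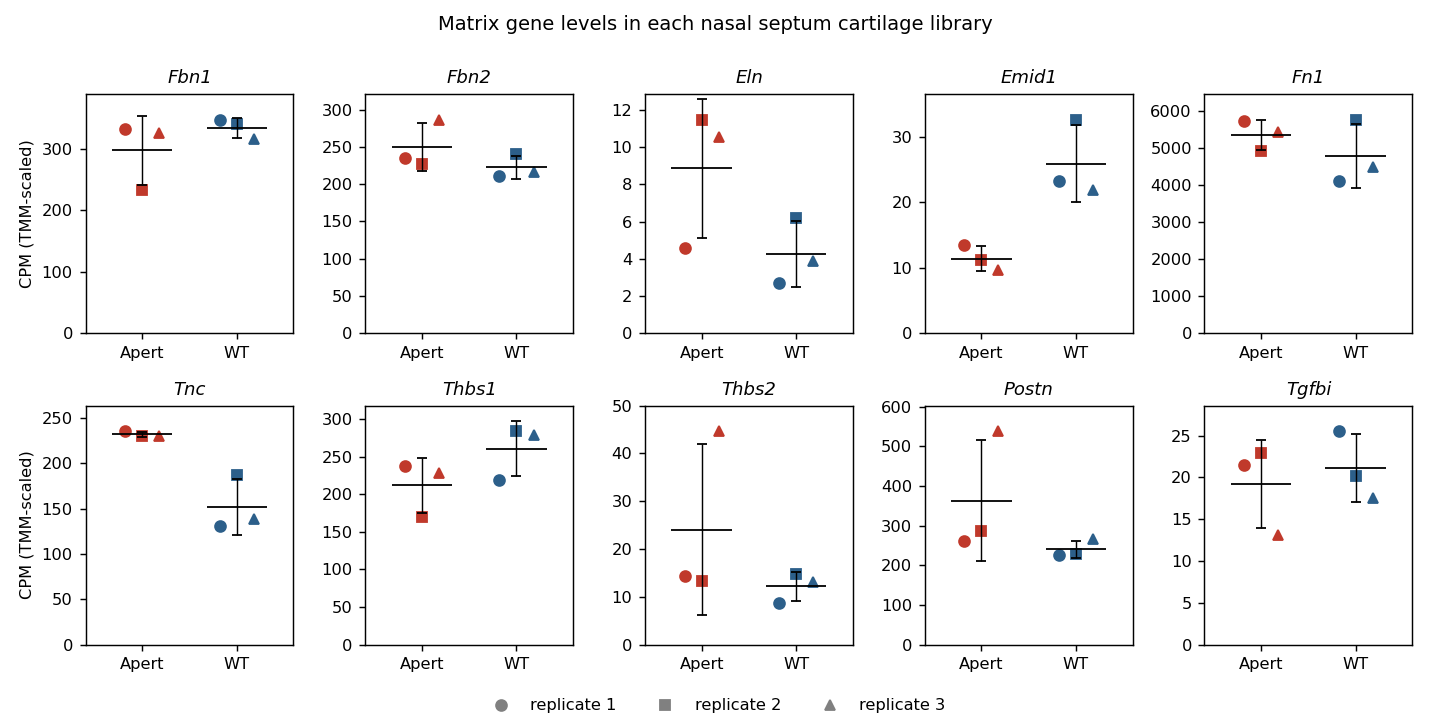
CPM of each gene in every library, Apert left of WT, with axes from 0, a horizontal line at the mean and bars for the SD of 3 libraries. Tnc lies at 230 to 235 CPM in Apert and 131 to 187 CPM in WT libraries, and Apert replicate 3 stands alone for Postn at 539 CPM and Thbs2 at 44.7 CPM.

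Emid1 encodes a secreted protein with an EMI domain and collagen-like repeats. The gene (ENSMUSG00000034164) spans chr11:5106265-5152257 on the minus strand (mm10), and none of its exons is shared with another gene of the annotation. It was at 13.4, 11.2 and 9.58 CPM in Apert replicates 1 to 3 and 23.3, 32.6 and 21.8 CPM in WT replicates 1 to 3. Every Apert library was below every WT library, with WT replicate 2 the highest. Means were 11.4 ± 1.93 CPM in Apert and 25.9 ± 5.83 CPM in WT (SD, n = 3 each), 2.26-fold lower in Apert, with a fitted log2 fold change of -1.17 (standard error 0.24). These levels rested on 59 to 135 counts in Apert and 201 to 337 counts in WT libraries.

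The Emid1 call was not held by every library or setting. It ended when WT replicate 1, 2 or 3 or Apert replicate 2 or 3 was left out, with log2 fold changes of -1.25, -0.98, -1.28, -1.16 and -1.08, and with limma-voom (-1.14). Over all genes those fits without a library called 15, 23, 0, 2 and 11 genes, and limma-voom called 68, against 60 in the main fit. The Emid1 call held without Apert replicate 1 (-1.35), a fit in which 1.65% of genes were called. The longest Emid1 transcript is 61.9% G and C, the highest of the 10 genes. Across all tested genes with a GC value, the median log2 fold change was 0.20 in the fifth with the lowest GC content and -0.26 in the fifth with the highest, which holds Emid1. After correction for GC content the log2 fold change of Emid1 was -0.80 (standard error 0.22) and the gene was not called, in a fit that called 5 genes.

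Tnc encodes tenascin-C, a hexameric glycoprotein of perichondrium and other embryonic connective tissue that modulates the adhesion of cells to fibronectin. It was at 235, 230 and 230 CPM in Apert replicates 1 to 3 and 131, 187 and 138 CPM in WT replicates 1 to 3. All 3 Apert libraries lay above all 3 WT libraries, while WT replicate 2 lay between the other WT libraries and the Apert ones. The coefficient of variation was 1.35% in Apert and 20.3% in WT. On 2369, 1688 and 1415 counts, counting error alone is larger than 1.35%, so the close Apert values are not read as uniform expression. Means were 232 ± 3.12 CPM in Apert and 152 ± 30.8 CPM in WT (SD, n = 3 each), with a log2 fold change of 0.61 (standard error 0.15) that was not called.

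Tnc was called with the replicate number as a block, where 1.29% of all genes were called, with DESeq2, where 1.67% were, and with no filter on low counts, where 1.07% were. The DESeq2 share is over all 13333 genes, some of which, such as Eln, were given no adjusted p. Among genes that DESeq2 could call the share was higher. With each library left out in turn its log2 fold change ran from 0.51 to 0.78, and after correction for GC content it was 0.73. Tnc shares 176 of its 7772 exon bases with 8030451A03Rik on the other strand, and strand was not used in counting. That gene had 42 to 56 counts in Apert and 24 to 37 in WT libraries, against 1415 to 2369 and 1276 to 1940 counts of Tnc, so part of the Tnc count is uncertain. Tnc spans chr4:63959785-64047015 on the minus strand (mm10).

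Postn encodes periostin, a fasciclin-domain protein of periosteum and perichondrium that helps collagen fibres to assemble. It was at 262, 288 and 539 CPM in Apert replicates 1 to 3 and 226, 227 and 266 CPM in WT replicates 1 to 3. Apert replicate 3 was 1.87 times the next library, and Apert replicate 1 lay below WT replicate 3, so the groups overlapped. Means were 363 ± 153 CPM in Apert and 240 ± 22.5 CPM in WT (SD, n = 3 each), and the log2 fold change of 0.60 (standard error 0.21) was not called. Without Apert replicate 3 it was 0.19. Postn was called without Apert replicate 1 (0.75) and with no filter on low counts. Its longest transcript is 36.3% G and C, the lowest of the 10, and after correction for GC content the log2 fold change was 0.33.

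Tgfbi, the close relative of periostin that TGF-beta induces, was at 21.5, 22.9 and 13.2 CPM in Apert replicates 1 to 3 and 25.5, 20.2 and 17.6 CPM in WT replicates 1 to 3. Its lowest value was in Apert replicate 3, where Postn was highest. The log2 fold change was -0.13 (standard error 0.25) and turned positive without Apert replicate 3 (0.06), without WT replicate 1 (0.03) and after GC correction (0.0049). Per kilobase the ratio of Postn to Tgfbi was 4.18, 4.29 and 14.0 in Apert and 3.03, 3.85 and 5.17 in WT libraries.

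Thbs2 encodes thrombospondin-2, a matricellular protein that limits angiogenesis and shapes collagen fibrils. It was at 14.3, 13.2 and 44.7 CPM in Apert replicates 1 to 3 and 8.78, 14.8 and 13.0 CPM in WT replicates 1 to 3. Only Apert replicate 3 stood out, at 3.02 times the next library, and the other Apert libraries lay within the WT range. The log2 fold change was 0.97 (standard error 0.37) with all libraries and 0.17 without Apert replicate 3, and the gene was called only with no filter on low counts among the alternatives run. Apert replicate 3 was the highest library by at least 1.5-fold in 279 genes, 2.09% of those tested, among them Postn and Thbs2. Apert replicate 2 held that place in 2.80% of genes and WT replicate 2 in 2.12%. Of the 6 libraries, Apert replicate 3 also had the lowest total, 6760510 counts, and the highest mitochondrial share, 40.4%. The part of depth or of that share in its values was not tested.

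Thbs1, which encodes thrombospondin-1, an activator of latent TGF-beta, was at 237, 170 and 228 CPM in Apert replicates 1 to 3 and 219, 284 and 279 CPM in WT replicates 1 to 3. The groups overlapped, with Apert replicate 2 lowest. The log2 fold change was -0.30 (standard error 0.16) and was not called in any fit. Per kilobase Thbs1 exceeded Thbs2 by 16.2, 12.5 and 4.98 times in Apert and by 24.3, 18.7 and 20.9 times in WT libraries, so the ratio was lower in every Apert library than in any WT library. That pattern was noticed after the values were seen and was not tested.

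**Figure D3:**
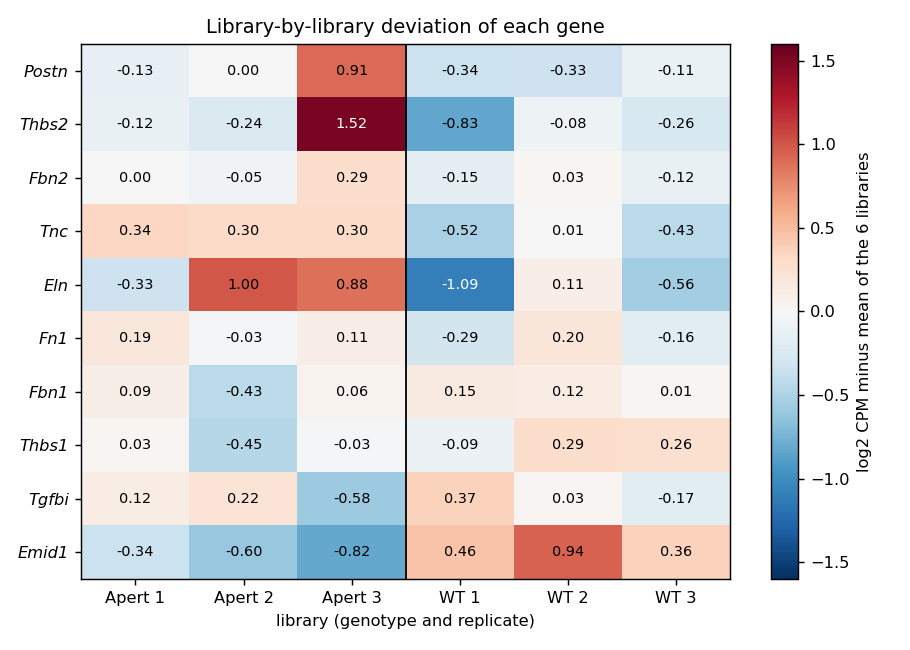
Deviation of log2 CPM of each gene in each library from its mean over the 6 libraries, Apert libraries left of the line and WT libraries right of it, with the value printed in each cell. Apert replicate 3 is at 0.91 for Postn and 1.52 for Thbs2, and Tnc is near 0.3 in all 3 Apert libraries.

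Fn1, the fibronectin gene, whose protein gives cells an integrin-binding fibrillar matrix, was at 5734, 4932 and 5429 CPM in Apert replicates 1 to 3 and 4109, 5768 and 4497 CPM in WT replicates 1 to 3. WT replicate 2 was the highest of the 6 and WT replicate 1 the lowest, so the Apert range lay inside the WT range. The log2 fold change was 0.16 (standard error 0.14), 0.01 on library totals and 0.31 after correction for GC content, and no fit called it. Fn1 shares 263 of its 8312 exon bases with Apol7d, which had 3 to 11 counts in Apert and 5 to 8 in WT libraries.

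Fibrillins build the microfibrils. Fbn1 was at 333, 233 and 327 CPM in Apert replicates 1 to 3 and 347, 340 and 316 CPM in WT replicates 1 to 3, with Apert replicate 2 alone below the others (log2 fold change -0.17, standard error 0.15). Fbn2, a fibrillin of embryonic tissue, was at 235, 227 and 286 CPM in Apert replicates 1 to 3 and 211, 241 and 216 CPM in WT replicates 1 to 3 (log2 fold change 0.16, standard error 0.14). Neither was called in any fit, and in both the groups overlapped. Per kilobase the ratio of Fbn1 to Fbn2 was 1.23, 0.890 and 0.986 in Apert and 1.42, 1.22 and 1.26 in WT libraries, so Apert replicate 1 fell within the WT range and the other Apert libraries below it. Fbn1 shares 2442 of its 12128 exon bases with Gm9913 on the other strand, which had 1 to 3 counts in Apert and 1 to 8 in WT libraries. That is 20.1% of its exon length, and strand was not used in counting. The Fbn1 count, its level per kilobase and its ratio to Fbn2 are therefore uncertain.

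Eln, the gene of tropoelastin, had the lowest mean level per kilobase of the 10 in both groups, on 46, 84 and 65 counts in Apert and 31, 64 and 36 counts in WT libraries. Its levels were 4.57, 11.5 and 10.6 CPM in Apert replicates 1 to 3 and 2.69, 6.18 and 3.91 CPM in WT replicates 1 to 3. Apert replicates 2 and 3 lay above all WT libraries and Apert replicate 1 within their range. The log2 fold change was 1.05 (standard error 0.41), the largest positive one of the 10 and also the least precise, and no fit that gave an adjusted p called it (DESeq2 gave none). Its longest transcript is 58.8% G and C, and after correction for GC content the log2 fold change was 1.36.

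**Figure D4:**
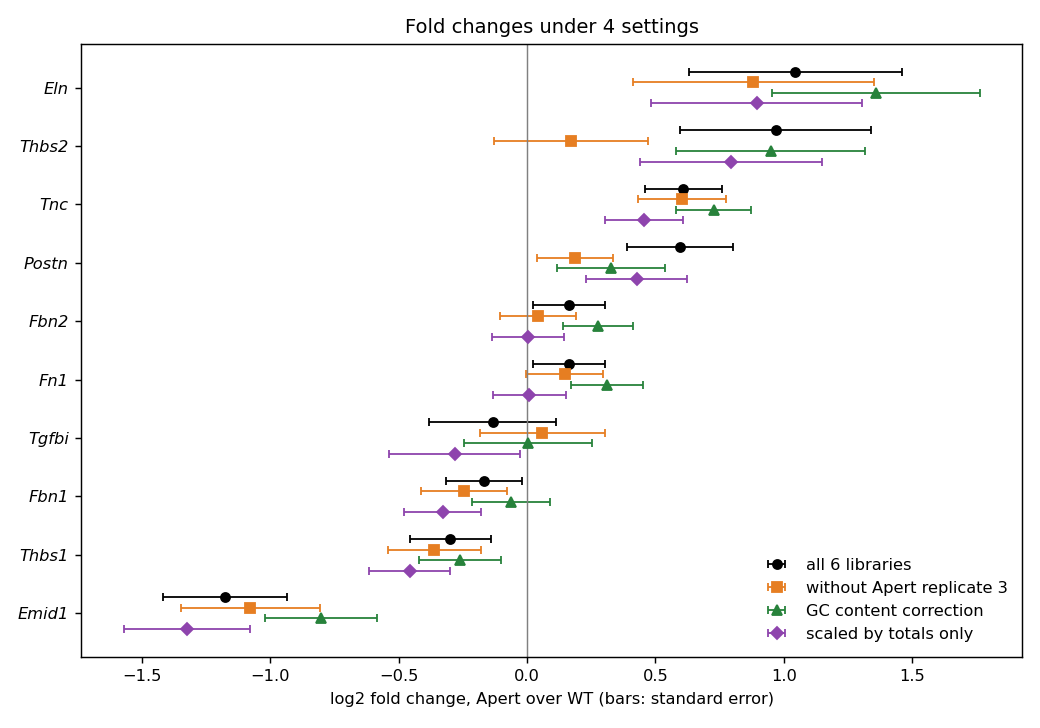
Fitted log2 fold changes of the 10 genes, Apert over WT, with standard errors, from all 6 libraries, without Apert replicate 3, after correction for GC content and with libraries scaled by totals alone. Emid1 runs from -1.32 to -0.80 and Tnc from 0.46 to 0.73, while Thbs2 and Postn are at 0.17 and 0.19 without Apert replicate 3.

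Markers of perichondrium and fibrous mesenchyme differed in direction among themselves, while their sum was higher in Apert. The summed level was 4657, 4535 and 5061 CPM in Apert replicates 1 to 3 and 3724, 4157 and 3863 CPM in WT replicates 1 to 3, without overlap and highest in Apert replicate 3, over 17 genes of which only Dpt was at 0 in all libraries. The sum was mostly Col1a2 and Col12a1, whose own levels overlapped between the groups. Of the 14 tested, 9 had positive and 5 negative log2 fold changes, the negative ones being those of Col14a1 (-0.31), Dcn (-0.22), Pdgfra (-0.17), Col5a1 (-0.11) and Twist1 (-0.01). Against 0.45% of all genes called, 2 of the 14 rose and none fell: the fibrillar collagen gene Col3a1 (log2 fold change 0.69, edgeR adjusted p = 0.0322) and the proteoglycan gene Ogn (0.93, edgeR adjusted p = 0.0363), both already known from these data when the list was written. The 12 cartilage markers, of which none was called, summed to 37699 to 40879 CPM in Apert and 36179 to 47750 CPM in WT libraries. The part of perichondrium or of the mitochondrial share in the values of Tnc, Postn, Thbs2 and Emid1 was not tested.

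Markers of other cell types ranged from near 0 to levels above several of the 10 genes. Endothelial markers summed to 1.59 to 4.39 CPM in Apert and 1.04 to 3.15 CPM in WT libraries, with none of 6 at 0 in all libraries. Skeletal muscle markers summed to 0.497 to 1.09 CPM in Apert and 0.0869 to 2.71 CPM in WT libraries, with Myod1, Myog and Ckm at 0. Epithelial markers summed to 0.497 to 3.002 CPM in Apert and 1.09 to 1.64 CPM in WT libraries, with Cdh1 and Krt14 at 0, and macrophage markers to 4.27 to 13.1 CPM in Apert and 4.34 to 7.05 CPM in WT libraries. Smooth muscle and pericyte markers summed to 19.98 to 23.7 CPM in Apert and 18.7 to 21.5 CPM in WT libraries, and erythroid markers to 58.7 to 70.8 CPM in Apert and 50.4 to 92.9 CPM in WT libraries. Glia markers, Sox10 and S100b the most abundant, summed to 182 to 208 CPM in Apert and 239 to 301 CPM in WT libraries without overlap, with Foxd3 at 0. Sox10 was at 76.5 to 106 CPM in Apert and 116 to 161 CPM in WT libraries. In CPM, not scaled by length, it was above Emid1, Eln, Thbs2 and Tgfbi in every library, and the part of glia in the results was not tested. Of the osteoblast markers Ibsp, Bglap2 and Dmp1 were at 0, and the sum of 74.1 to 96.7 CPM in Apert and 83.4 to 86.4 CPM in WT libraries was nearly all Runx2.

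Genes that work with the 10 in the matrix were read from 4 lists, 2 of whose 69 tested genes were called, both lower in Apert, against 0.45% of all genes called and 0.0525% called lower, and both among the results known when the lists were written. Among 22 tested microfibril and elastic fibre partners none was called (edgeR; median log2 fold change -0.08). The smallest p values were those of Emilin1, which encodes an EMI-domain glycoprotein of elastic fibres, at 68.2, 40.9 and 42.9 CPM in Apert and 84.4, 89.0 and 72.7 CPM in WT libraries (log2 fold change -0.69, standard error 0.19, edgeR adjusted p = 0.147), Efemp1, the fibulin-3 gene (0.82, edgeR adjusted p = 0.246), and Ltbp3, a latent TGF-beta binding protein gene (-0.45, edgeR adjusted p = 0.306). In each of these 3, picked for their small p values, the groups did not overlap, against 16.6% of all genes. After GC correction Emilin1 was at -0.35, Ltbp3 at -0.16 and Efemp1 at 0.71. Emilin1 was called with DESeq2, with the replicate block, with no filter and without Apert replicate 1 (-1.001). The microfibril-associated gene Mfap5 was at 0 to 0.199 CPM in Apert and 0.0869 to 0.651 CPM in WT libraries and was not tested.

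Among 12 tested genes of other tenascins, thrombospondins and matricellular proteins, 1 fell and none rose (median log2 fold change -0.30). The gene that fell was Smoc2, a calcium-binding matricellular protein gene, at 51.2, 38.3 and 50.4 CPM in Apert and 123, 105 and 95.7 CPM in WT libraries (log2 fold change -1.21, standard error 0.17, edgeR adjusted p = 0.00453). Its relative Smoc1 was at 30.3, 15.6 and 24.7 CPM in Apert and 44.3, 50.3 and 41.2 CPM in WT libraries (log2 fold change -0.94, edgeR adjusted p = 0.0821), and Spon1 had a log2 fold change of -0.36 (edgeR adjusted p = 0.49) that was -0.16 without WT replicate 1. Smoc1 was called on library totals, with DESeq2, with the replicate block, with no filter and without Apert replicate 1. The Smoc2 call ended without WT replicate 3 (-1.29) and without Apert replicate 2 (-1.097), and held after GC correction (-1.21, edgeR adjusted p = 0.029). The tenascin genes Tnn, Tnr and Tnxb and the thrombospondin gene Thbs4 did not pass the filter on low counts, so Tnc was the one tenascin tested.

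Of 19 tested receptor and assembly genes 1 fell and none rose (median log2 fold change 0.06). Sdc4, a heparan sulfate proteoglycan that binds fibronectin together with integrins, was at 49.8, 44.6 and 39.8 CPM in Apert and 66.5, 115 and 92.1 CPM in WT libraries (log2 fold change -1.02, standard error 0.19, edgeR adjusted p = 0.0248). Its relative Sdc2 was at 54.3, 62.4 and 63.0 CPM in Apert and 30.8, 41.3 and 45.2 CPM in WT libraries, without overlap (0.62, edgeR adjusted p = 0.169), and the transglutaminase gene Tgm2 had a log2 fold change of -0.60 (edgeR adjusted p = 0.303) that was -0.27 without WT replicate 2 and -0.32 after GC correction. Tgm2 was called with no filter. The Sdc4 call ended without WT replicate 2 (-0.82), WT replicate 3 (-1.02), Apert replicate 2 (-1.03) or Apert replicate 3 (-0.96) and after GC correction (-1.001, edgeR adjusted p = 0.0642). Over all genes those fits called 23, 0, 2, 11 and 5. Without WT replicate 3 or Apert replicate 2, none of the 69 list genes was called, and 14 and 10 of them had an unadjusted edgeR p below 0.05. None of 16 tested TGF-beta supply and signal genes was called (edgeR; median -0.10), the smallest p values being those of Tgfb3 (-0.51), Smad3 (-0.33) and Wwtr1 (0.29). Over all fits these ran from -0.79 to -0.34, from -0.54 to -0.19 and from 0.13 to 0.37.

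Profiles most like those of Tnc, Emid1 and Postn were sought by Pearson correlation of log2 CPM over the 6 libraries among 7149 genes with mean CPM of at least 10. For Tnc they were Zfp260 (r = 0.99), Ube2c (0.99), a ubiquitin-conjugating enzyme gene of mitosis, and Pola1 (0.99), a DNA polymerase subunit gene, and 1.78% of genes reached 0.9. For Emid1 they were Tet3, Pacs1 and Gga2 (0.99 each), and 2.59% reached 0.9. For Postn they were Ankrd12 (0.99), Cnot10 (0.98) and Azi2 (0.98), and 1.34% reached 0.9. With 6 libraries in 2 genotypes such values describe likeness alone. Among the 10 genes themselves, Thbs2 and Fbn2 (r = 0.97) and Postn and Thbs2 (0.94) were most alike, all 3 highest in Apert replicate 3, and Tgfbi and Thbs2 most opposed (-0.91).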

How the data were processed

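RNA was measured in 6 libraries, 3 Apert and 3 WT, each amplified from 15 ng of RNA with the NuGEN Ovation kit, tagged with Nextera XT and read as 100 bp pairs, per the labels' protocols. Amplification of small inputs can distort levels by GC content and length. The deposited values are raw counts of fragments over the exons of each gene in Ensembl release 75 (GRCm38), taken without strand by featureCounts 1.4.4, per the file headers. Trimming tool and aligner were cutadapt and STAR 2.5.2b, on mm10, per the submitters' processing notes. Symbols were matched by identifier for 37607 of 38924 genes; the 1317 others held at most 0.205% of counts and stayed in the totals. One count was 0.148 CPM in the shallowest library, and precision from depth covers counting error only.

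Counts were fitted in R 4.3.3 with edgeR 4.0.16 (filterByExpr, TMM scaling, quasi-likelihood F test, Benjamini-Hochberg adjustment at 0.05). Standard errors are the log2 fold change divided by the square root of F. Levels per kilobase are CPM over the exon length of the count tables. Likeness used log2 CPM with a prior count of 2. GC content is that of each gene's longest transcript in GENCODE M21, known for 13192 of 13333 tested genes; the GC and length corrections used smooth curves from mgcv 1.9.3 as offsets. Other tools were DESeq2 1.42.0 and limma 3.58.1 (voom).

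The members and lists were chosen with earlier results of these data known. The rule for naming took all 10 members, the called genes of each partner list and otherwise those with the smallest p until 3 were named, and the 3 genes most like each of Postn, Tnc and Emid1. Values of Col2a1, Col3a1, Ogn, Col1a2, Col12a1, Col14a1, Dcn, Pdgfra, Col5a1, Twist1, Sox10, S100b, Runx2, Mfap5, Vcan, Adamts10, Loxl3 and Lox were given after they were seen. Adamtsl6 matched no gene. Promoters were taken from the RefSeq table for 6 of the 10 genes, and Fbn2, on chromosome 18, was left out of that search.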

Additional observations from a re-analysis of the deposited data

How the results depend on the processing

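Over all genes 60 were called, against 247 with no filter on low counts, 223 with DESeq2, 172 with the replicate block, 5 after GC correction and 0 to 229 with each library left out; without WT replicate 3 edgeR called 0 genes, with 1376 at an unadjusted p below 0.05. Of the 10 members 1 was called, against 4 with no filter (Emid1, Tnc, Postn and Thbs2), 2 with DESeq2 and 2 with the replicate block (Emid1 and Tnc), 0 with limma-voom and after GC correction (4 and 5 members at an unadjusted p below 0.05), and 0 to 2 with each library left out. Of the 69 partner genes 2 were called, against 5 with no filter, 4 with DESeq2 and with the replicate block, 1 after GC correction and 0 to 5 with each library left out. The causes were not tested. Other scalings, the mean CPM filter of 5, removal of mitochondrial and rRNA genes, thinning to 6760510 counts and length correction left Emid1 as the one member called. Member log2 fold changes kept their sign in all fits except that of Tgfbi, at 0.0049 after GC correction, 0.03 without WT replicate 1 and 0.059 without Apert replicate 3, within a range of -0.28 to 0.059 with each library left out. Deviations from group means correlated by 0.19, 0.02 and 0.09 between Apert and WT libraries of equal replicate number, 1 to 3. Between libraries of unequal number they correlated by -0.15 to 0.07. The labels do not say whether equal numbers mark paired samples, and these values do not settle it. Eln, Emid1, Thbs2 and Tgfbi had 31 to 337 counts a library, and counting error weighs on them.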

Other observations

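Some microfibril and elastic fibre partners of the 10 genes varied strongly between libraries of 1 genotype. Vcan, the gene of versican, a large proteoglycan that binds fibrillin, was at 1401, 916 and 814 CPM in Apert replicates 1 to 3 and 1664, 488 and 710 CPM in WT replicates 1 to 3 (log2 fold change 0.13, standard error 0.30). Adamts10, a protease gene of the fibrillin microfibril, was at 57.0, 160 and 132 CPM in Apert and 89.8, 90.4 and 104 CPM in WT libraries, so its lowest and highest values were both in Apert. The lysyl oxidase gene Lox, whose product crosslinks collagen and elastin, was at 38.4, 46.8 and 62.7 CPM in Apert and 33.4, 36.2 and 38.2 CPM in WT libraries, highest in Apert replicate 3 (log2 fold change 0.45, standard error 0.20, edgeR adjusted p = 0.398). The Lox groups did not overlap, as in 16.6% of all tested genes, but Apert replicate 1 and WT replicate 3 nearly met. The Lox relative Loxl3 was at 194, 169 and 215 CPM in Apert and 160, 231 and 180 CPM in WT libraries. These genes were picked after their values were seen.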
